A study of Homo sapiens with 6 samples.

Results

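The genes described here are 45 genes of the G2 phase and of mitosis. They were chosen by name for what they encode, with earlier results of these data known. They are cyclins and CDK1 with its phosphatases, mitotic kinases, kinesins, kinetochore, spindle, cytokinesis and condensin proteins, regulators of sister separation, and the factors FOXM1 and TACC3. All 45 were found among the 34905 genes with a matched transcript, and all 45 were among the 14497 genes that passed the filter on low counts. The estimated counts per library ran from 145 for CDC25C to 18805 over these genes, so none was near the filter.

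The RNA came from THP1, a leukaemia line of human monocytic origin, and was selected for poly(A) tails in 6 libraries. The labelled groups are ALKBH5 rescue, shALKBH5 and shCtrl, with 2 libraries each, and the labels give their genotypes as ALKBH5 rescue, ALKBH5 knock-down and wild-type. ALKBH5 is a demethylase that takes the N6-methyladenosine (m6A) mark off RNA. Each group has a library numbered 1 and one numbered 2, and the labels do not say what the number stands for. The labels also do not say whether the cells were 1 clone, whether the control hairpin was present in all groups, how ALKBH5 was restored, or whether libraries came from separate cultures. Each p-value therefore reflects the spread of these libraries alone, and that spread could be technical.

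Genes of G2 and mitosis are switched on late in each cell cycle. Cyclin B with CDK1 drives entry into mitosis, the Aurora and Polo kinases build the spindle, and the checkpoint kinases hold the anaphase-promoting complex back until every kinetochore is attached. Their transcription is repressed early in the cycle by the DREAM complex and is activated later by B-MYB with the MuvB core and by FOXM1, through promoter elements called CHR and through CCAAT boxes bound by NF-Y. In a growing cell line their RNA is used as a measure of how many cells are in the late cycle. FOXM1 and TACC3 have been reported elsewhere as RNAs that ALKBH5 acts on.

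The targeted gene followed the library number and not the labelled group. ALKBH5 stood at 968, 1003 and 1097 CPM (counts scaled to a common library size) in the ALKBH5 rescue, shALKBH5 and shCtrl libraries numbered 2, against 13.6, 12.4 and 14.6 CPM in the same groups numbered 1. Along the labels no difference in ALKBH5 was detected, with a log2 fold change of -0.17 (SE 0.11) for shALKBH5 over shCtrl in a fit with number as a block. Labels are used here as given, and directions along them are those of the libraries as labelled. Whether titles and tables were crossed at deposit cannot be told from the files, and a crossing would change which libraries each comparison of labels or numbers sets against each other. The number was crossed with the groups, so the 45 genes were compared both between numbers (n = 3 each) and between labels (n = 2 each). Total estimated counts were 14534386 to 24857373 per library, and the first principal component, with 65.3% of the variance, separated the numbers. Anything else that differed between the numbers cannot be told apart from the level of ALKBH5. The myeloid markers of THP1 summed to 3691 to 4187 CPM in number 2 and 3508 to 3877 CPM in number 1, led by LYZ. Of those 12 markers, 3 were higher in number 2 (LYZ, CD33 and CD68) and 4 were lower (CD14, ITGAM, CD4 and MPO). Of all 14497 tested genes, 22.8% were called higher and 22.6% lower, so these few calls are not read as a shift of the markers. Summed T and NK markers were at 18.8 to 23.1 CPM in number 2 and 22.4 to 25.2 CPM in number 1, with CD3D and CD2 at 0. The B cell markers summed to 11.3 to 13.5 CPM in number 2 and 6.95 to 8.68 CPM in number 1, with PAX5 the most abundant. Of the 3 B cell markers that passed the filter, 2 were called higher in number 2 and 0 lower. Erythroid and megakaryocyte markers stayed under 1 CPM in sum, with HBB, HBA1, HBA2, PF4 and GP9 at 0, and epithelial and fibroblast markers reached at most 2.06 CPM, with KRT18, KRT19 and COL3A1 at 0. The part of other cell types in the results was not tested.

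The promoters of these genes share letters that the choice of genes did not use. In the window from 250 bases before to 50 bases after the start, from RefSeq (GRCh38.p14), 38 of the 45 genes had a sequence. UBE2C, AURKA, TTK, BIRC5, TPX2, RACGAP1 and FOXM1 had no entry. The CHR letters TTTGAA occurred on either strand in 26 of the 38 windows (68.4%), against 9.90% of the windows of all tested genes and 15.4% of all 27305 windows. In 16 genes such a match began within 60 bases before the start. CCAAT on either strand was found in 26 of the 38 (68.4%), against 36.4% of tested genes and 35.7% of all windows. Both stood together in 19 of the 38, against 4.07% of tested genes. The variant letters TTCGAA were in 2 of the 38 windows (5.26%, against 1.72% of tested genes), and the E2F letters GGCGGGAA were in 2 (5.26%, against 5.03%). The windows printed here are those of the 2 genes with the smallest p between the numbers that hold the CHR letters (TOP2A and MKI67), and of CDK1 and its partner cyclin CCNB1. Letters run 5′ to 3′ on the strand of the gene, and capitals mark TTTGAA or CCAAT, or their reverse complements TTCAAA and ATTGG.
TOP2A (chr17:40417847-40418146, minus strand): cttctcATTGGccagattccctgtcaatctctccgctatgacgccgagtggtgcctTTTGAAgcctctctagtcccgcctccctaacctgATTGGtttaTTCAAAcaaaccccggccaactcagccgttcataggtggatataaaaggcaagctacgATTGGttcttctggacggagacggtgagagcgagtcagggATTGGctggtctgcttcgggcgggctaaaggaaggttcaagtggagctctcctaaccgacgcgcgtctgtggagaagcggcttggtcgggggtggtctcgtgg
MKI67 (chr10:128126374-128126673, minus strand): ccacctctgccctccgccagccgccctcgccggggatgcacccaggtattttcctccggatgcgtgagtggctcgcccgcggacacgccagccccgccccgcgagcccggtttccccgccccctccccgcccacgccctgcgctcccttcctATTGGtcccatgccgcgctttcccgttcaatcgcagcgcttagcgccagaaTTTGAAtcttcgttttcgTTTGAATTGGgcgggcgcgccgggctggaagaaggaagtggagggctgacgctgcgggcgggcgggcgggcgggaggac
CDK1 (chr10:60778081-60778380, plus strand): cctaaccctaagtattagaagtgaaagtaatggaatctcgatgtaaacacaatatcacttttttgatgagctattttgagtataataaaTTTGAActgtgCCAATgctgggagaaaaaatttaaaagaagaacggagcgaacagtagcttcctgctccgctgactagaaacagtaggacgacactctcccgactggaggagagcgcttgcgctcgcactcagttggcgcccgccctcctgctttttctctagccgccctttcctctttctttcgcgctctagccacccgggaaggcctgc
CCNB1 (chr5:69166900-69167199, plus strand): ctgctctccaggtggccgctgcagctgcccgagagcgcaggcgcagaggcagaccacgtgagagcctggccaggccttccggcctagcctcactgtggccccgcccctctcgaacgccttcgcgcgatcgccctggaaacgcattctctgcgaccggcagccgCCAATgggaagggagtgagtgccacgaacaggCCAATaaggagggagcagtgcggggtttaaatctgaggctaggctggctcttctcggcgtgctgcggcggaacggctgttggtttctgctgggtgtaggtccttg
TOP2A carries CHR letters at -194 and, on the other strand, at -151, counted from the start to the first letter, with 4 inverted CCAAT boxes. MKI67 has CHR letters at -47 and -29, and the second run shares its last base with an inverted CCAAT box. CDK1 has 1 CHR match at -161 and a CCAAT box at -150. CCNB1 has CCAAT boxes at -87 and -55 and none of the TTTGAA letters in this window. Matches of letters are a description of the sequence and were not tested for binding. Each gene has 1 window here, which was not matched to the transcript that led in these libraries. Letters near other starts of the same gene, CDK1 included, were not searched.

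Per unit of length, the most abundant of the 45 genes was CDC20, the activator of the anaphase-promoting complex, with a mean of 698 TPM (abundance scaled for transcript length) over the 6 libraries. The lowest was CENPE, the kinetochore kinesin, at 8.04 TPM, and the median gene stood at 56.3 TPM. TPM levels differed within each functional class, from 12.5 TPM (CDC25C) to 165 TPM (CCNB1) among the cyclins, CDK1 and its phosphatases, and from 8.75 TPM (ASPM) to 210 TPM (PRC1) among the spindle genes. The 45 genes together took 0.771%, 0.747% and 0.685% of the matched estimated counts in the ALKBH5 rescue, shALKBH5 and shCtrl libraries numbered 2, against 0.493%, 0.524% and 0.523% in the same groups numbered 1. All number 2 libraries lay above all number 1 libraries in this share.

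The genes were higher in the number 2 libraries as a broad group. In edgeR's quasi-likelihood test with group and number as terms, 33 of the 45 genes were higher in number 2 at an adjusted p under 0.05, 0 were lower and 12 did not pass. Of all 14497 genes tested, 22.8% were called higher and 22.6% lower. In RNA from whole cultures, more cells in the late cycle and more RNA per cell in number 2 cannot be told apart. The median log2 fold change of number 2 over number 1 was 0.41 for the 45 genes and 0.01 for all tested genes. For 32 of the 45 genes every number 2 library lay above every number 1 library, a pattern found in 28.6% of all tested genes, and for CDC25B alone every number 2 library lay below (29.1% of all tested genes). The log2 fold change was positive in all 3 labelled groups for 36 genes, 32 of them among the 33 called. This was not counted for all tested genes. A call on the number term shared by the groups makes the same sign in each likely, so the 32 add no separate support. Most of the differences were modest: 3 of the 33 genes exceeded 2-fold, 10 lay between 1.5-fold and 2-fold, and 20 were below 1.5-fold. Without the library labelled shALKBH5 replicate 1 the number of genes called fell to 21 (13.9% of all tested genes higher), and without that labelled shALKBH5 replicate 2 it fell to 22 (14.6%). In these fits, which keep 1 residual degree of freedom, the median of the 45 genes was 0.44 and 0.46. The shALKBH5 library that remains is fitted by its own group term. Both fits therefore rest on the same shCtrl and ALKBH5 rescue libraries and are not separate checks. Of the 33 genes, 12 lost their call without either one (CCNB1, BUB1B, INCENP, KIF20A, KIF23, KIF2C, KIF4A, TPX2, PRC1, ECT2, NCAPH and FOXM1), and AURKB lost it without replicate 1 alone. KIF2C also lost its call without either shCtrl library, and ECT2 without either ALKBH5 rescue library.

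**Figure D1:**
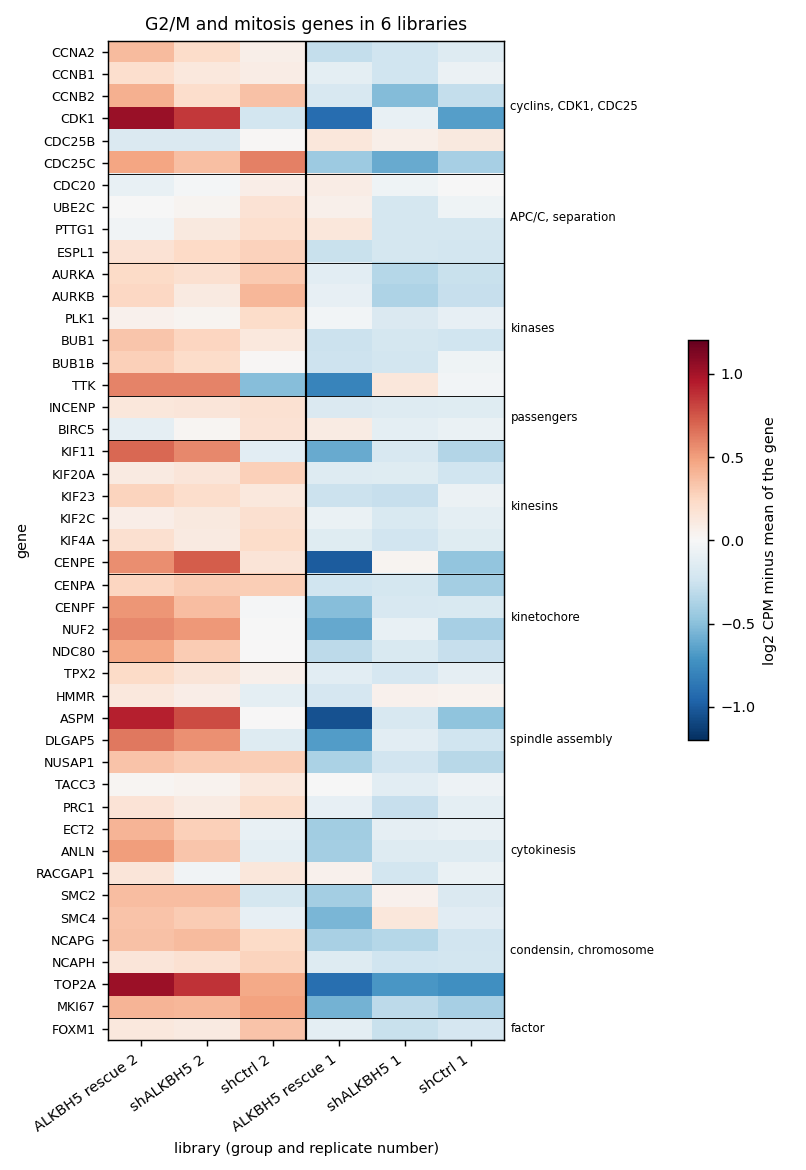
Each row is 1 of the 45 genes and each column 1 library; colour is log2 CPM minus the gene's mean over the 6 libraries, and the black line separates number 2 (left) from number 1 (right). Most rows are red on the left and blue on the right, while CDC25B runs the other way and CDC20 shows little colour.

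**Figure D2:**
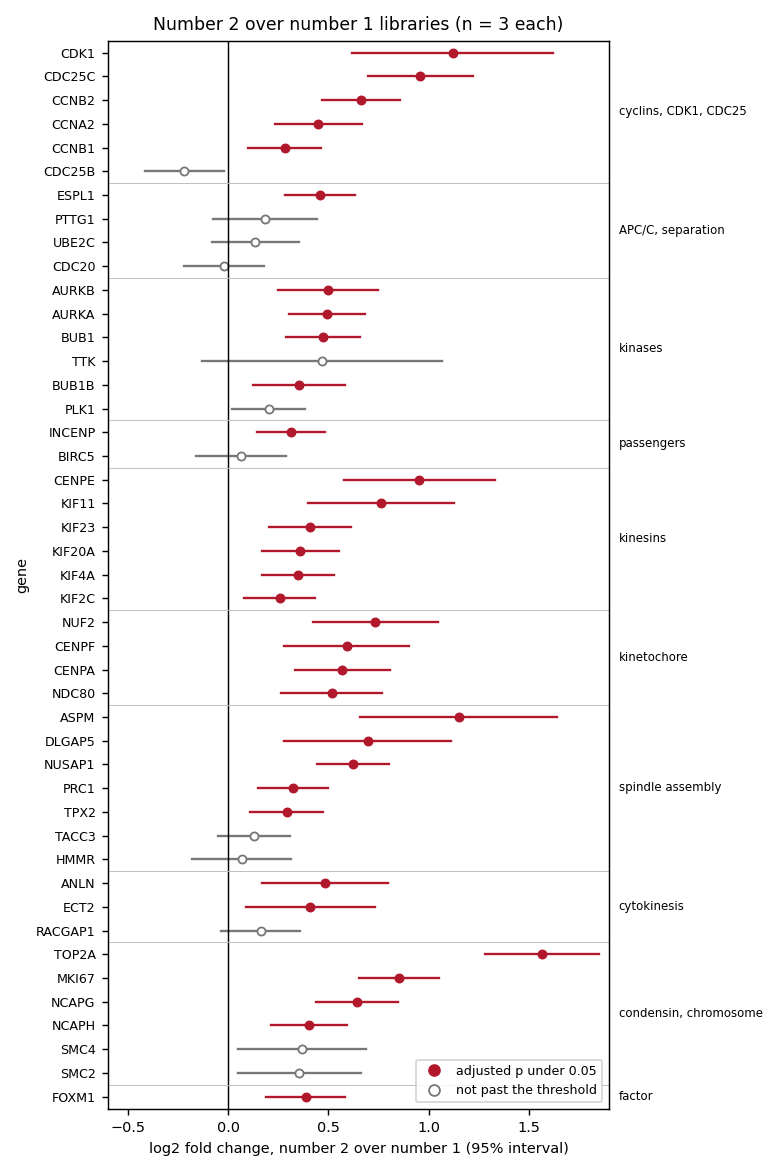
Points give the log2 fold change of number 2 over number 1 with its 95% interval for each gene (n = 3 libraries per number), grouped by role. Filled red points are the 33 genes past the threshold and open grey points the 12 that did not pass; TOP2A at 1.57 lies farthest from 0.

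Of the 6 condensin and chromosome genes, 4 were higher in number 2, among them TOP2A and MKI67, which had the smallest p of the 45. TOP2A (ENSG00000131747.14, GRCh38 chromosome 17, 40388516 to 40417950, minus strand) encodes the topoisomerase that untangles sister DNA before separation. It stood at 574, 514 and 384 CPM in the ALKBH5 rescue, shALKBH5 and shCtrl libraries numbered 2, against 150, 173 and 168 CPM in the same groups numbered 1. The lowest number 2 library lay above the highest number 1 library. The log2 fold change was 1.57 (SE 0.13, n = 3 per number, edgeR adjusted p = 2.77e-05), or 2.96-fold. MKI67 (ENSG00000148773.13, chromosome 10, 128096659 to 128126385, minus strand) encodes Ki-67, the coat protein of mitotic chromosomes and a common proliferation marker. Its level was 933, 928 and 982 CPM in the ALKBH5 rescue, shALKBH5 and shCtrl libraries numbered 2, against 475, 566 and 535 CPM in those numbered 1. The numbers did not overlap, and the log2 fold change was 0.85 (SE 0.09, n = 3 per number, edgeR adjusted p = 9.45e-05). NCAPG, a subunit of condensin I, had 97.8, 99.3 and 89.6 CPM in the ALKBH5 rescue, shALKBH5 and shCtrl libraries numbered 2, against 58.4, 60.2 and 65.2 CPM in those numbered 1. All 3 groups showed the same direction, with a log2 fold change of 0.64 (SE 0.09). With GC offsets the value was 0.38 without either shALKBH5 library and 0.41 without either shCtrl library, and it passed in each. NCAPH, its kleisin partner, was also higher (0.40, SE 0.09). The condensin ATPases SMC2 and SMC4 had values of 0.36 (SE 0.14, edgeR adjusted p = 0.0574) and 0.37 (SE 0.14, adjusted p = 0.0609) and did not pass.

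The cyclins and CDK1 followed the same direction, with 5 of 6 genes higher in number 2. CDK1 (ENSG00000170312.15, chromosome 10, 60778331 to 60794852, plus strand) is the kinase that starts mitosis. Its level was 95.1, 83.7 and 39.8 CPM in the ALKBH5 rescue, shALKBH5 and shCtrl libraries numbered 2, against 24.5, 43.6 and 29.3 CPM in the same groups numbered 1. The shCtrl library numbered 2 lay below the shALKBH5 library numbered 1, so the numbers overlap. The log2 fold change was 1.12 (SE 0.22, n = 3 per number, edgeR adjusted p = 0.00313), and it was 0.72 without either ALKBH5 rescue library, still past the threshold. CCNB1 (ENSG00000134057.14, chromosome 5, 69167010 to 69178245, plus strand) encodes cyclin B1, the activating subunit of CDK1. It stood at 182, 173 and 168 CPM in the ALKBH5 rescue, shALKBH5 and shCtrl libraries numbered 2, against 146, 134 and 151 CPM in those numbered 1. The numbers did not overlap, but the difference was small at 0.28 (SE 0.08, edgeR adjusted p = 0.0193), and it was 0.24 and 0.25 and not past the threshold without shALKBH5 replicates 1 and 2 (adjusted p = 0.327 and 0.279).

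CCNB2, which encodes the second B-type cyclin, was at 82.8, 71.0 and 78.6 CPM in the ALKBH5 rescue, shALKBH5 and shCtrl libraries numbered 2, against 53.8, 43.0 and 50.5 CPM in those numbered 1. Its log2 fold change was 0.66 (SE 0.09, edgeR adjusted p = 0.000326). CDC25C and CDC25B encode phosphatases that activate CDK1. CDC25C had 19.1, 17.7 and 20.96 CPM in the ALKBH5 rescue, shALKBH5 and shCtrl libraries numbered 2, against 10.2, 9.08 and 10.5 CPM in those numbered 1. Its value was 0.96 (SE 0.12, edgeR adjusted p = 0.000223), and the numbers did not overlap. CDC25B was at 61.1, 61.3 and 69.6 CPM in the ALKBH5 rescue, shALKBH5 and shCtrl libraries numbered 2, against 76.0, 72.5 and 74.8 CPM in those numbered 1. Its value of -0.22 (SE 0.09, adjusted p = 0.0653) did not pass, and it passed as lower in a fit without the group term (-0.22, adjusted p = 0.0333). CCNA2, the cyclin of S and G2 phase, was higher at 0.45 (SE 0.10).

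Of the 4 genes of sister separation, 1 passed as higher in number 2, near the share of all tested genes called higher (22.8%). ESPL1, which encodes separase, the protease that cuts cohesin, had 123, 129 and 132 CPM in the ALKBH5 rescue, shALKBH5 and shCtrl libraries numbered 2, against 90.7, 94.1 and 93.6 CPM in those numbered 1. The log2 fold change was 0.46 (SE 0.08, edgeR adjusted p = 0.00132). CDC20 stood at 722, 753 and 812 CPM in the ALKBH5 rescue, shALKBH5 and shCtrl libraries numbered 2, against 817, 738 and 763 CPM in those numbered 1. The numbers overlapped, and the value of -0.02 (SE 0.09, 95% interval -0.22 to 0.18) turned to 0.0067 with upper-quartile scaling and to 0.051 with library totals. UBE2C, the ubiquitin-conjugating enzyme of the complex, and PTTG1, the separase inhibitor securin, had values of 0.13 (SE 0.10) and 0.19 (SE 0.12). PTTG1, like KIF4A and RACGAP1, has a near-identical copy elsewhere in the genome, so the split of its reads is uncertain.

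Of the 6 mitotic and checkpoint kinases, 4 were higher in number 2. AURKA, the centrosomal Aurora kinase, was at 107, 104 and 113 CPM in the ALKBH5 rescue, shALKBH5 and shCtrl libraries numbered 2, against 83.1, 71.4 and 75.1 CPM in those numbered 1. The numbers did not overlap, and the value was 0.49 (SE 0.09, edgeR adjusted p = 0.0014). BUB1, a kinase of the spindle checkpoint, stood at 163, 155 and 141 CPM in the ALKBH5 rescue, shALKBH5 and shCtrl libraries numbered 2, against 108, 112 and 110 CPM in those numbered 1. Its value was 0.47 (SE 0.08, adjusted p = 0.00151). When only protein-coding transcripts were counted, the value for BUB1 was 0.97 and no longer passed (adjusted p = 0.0549). The Aurora kinase of the passenger complex, AURKB, and the checkpoint protein BUB1B were higher at 0.50 (SE 0.11) and 0.35 (SE 0.10). PLK1, the Polo kinase, had 205, 203 and 231 CPM in the ALKBH5 rescue, shALKBH5 and shCtrl libraries numbered 2, against 193, 176 and 186 CPM in those numbered 1. The 3 number 2 libraries were the higher ones, but the value of 0.20 (SE 0.08, adjusted p = 0.0699) did not pass. It passed with upper-quartile scaling (0.23, adjusted p = 0.0423), with library totals (0.27, adjusted p = 0.0137), with no filter (0.24, adjusted p = 0.0393), with protein-coding transcripts alone (0.25, adjusted p = 0.0363) and without the group term (0.20, adjusted p = 0.0371). Without both ALKBH5 rescue libraries, a choice made after seeing the data, it also passed (0.26, adjusted p = 0.00881). TTK, the kinase that recruits checkpoint proteins to kinetochores, stood at 44.3, 44.3 and 20.5 CPM in the ALKBH5 rescue, shALKBH5 and shCtrl libraries numbered 2, against 16.9, 32.2 and 28.7 CPM in those numbered 1. It had the widest interval of the 45 genes, with 0.47 (95% interval -0.13 to 1.07).

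All 6 kinesins and all 4 kinetochore genes were higher in number 2. CENPE carries chromosomes towards the spindle equator and stood at 49.1, 55.4 and 37.2 CPM in the ALKBH5 rescue, shALKBH5 and shCtrl libraries numbered 2, against 16.8, 34.2 and 24.2 CPM in those numbered 1. The log2 fold change was 0.95 (SE 0.17, edgeR adjusted p = 0.00161). With GC offsets it was 0.60 and 0.61 without ALKBH5 rescue replicates 1 and 2, and it passed in both. The other kinesins ran from 0.26 (SE 0.08) for the microtubule depolymerase KIF2C to 0.76 (SE 0.16) for KIF11, the motor that pushes spindle poles apart. Among kinetochore genes, the log2 fold changes were 0.73 (SE 0.14) for NUF2 and 0.52 (SE 0.11) for NDC80, which together form the microtubule-binding complex, 0.57 (SE 0.11) for the centromeric histone CENPA and 0.59 (SE 0.14) for CENPF.

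Of the 7 spindle genes, 5 were higher in number 2. NUSAP1, which bundles microtubules at chromosomes, had 169, 165 and 163 CPM in the ALKBH5 rescue, shALKBH5 and shCtrl libraries numbered 2, against 103, 114 and 106 CPM in those numbered 1. Its log2 fold change was 0.62 (SE 0.08, edgeR adjusted p = 0.000307). ASPM, a spindle pole protein, reached 1.15 (SE 0.22), DLGAP5, which stabilises spindle microtubules, 0.70 (SE 0.19), PRC1, which crosslinks the central spindle, 0.33 (SE 0.08) and TPX2, the activator of Aurora A, 0.29 (SE 0.08). TACC3 (ENSG00000013810.18, chromosome 4, 1721490 to 1745176, plus strand) stabilises kinetochore fibres with the Aurora A kinase. It was at 308, 312 and 331 CPM in the ALKBH5 rescue, shALKBH5 and shCtrl libraries numbered 2, against 302, 277 and 291 CPM in those numbered 1. The numbers did not overlap, yet the value of 0.13 (SE 0.08, 95% interval -0.05 to 0.31, edgeR adjusted p = 0.218) did not pass. It passed with library totals (0.20, adjusted p = 0.0306). HMMR, a spindle and hyaluronan-binding protein, had a value of 0.07 (SE 0.11).

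Of the genes of cytokinesis and the passenger complex, ANLN and ECT2, which set up the contractile ring, were higher at 0.48 (SE 0.14) and 0.41 (SE 0.14), and RACGAP1 had a value of 0.16 (SE 0.09). INCENP, the scaffold of the passenger complex, was higher at 0.31 (SE 0.08), while survivin (BIRC5), its partner, had 0.06 (SE 0.10). The members nearest the threshold were ECT2, just inside at an adjusted p of 0.042 in edgeR's test, and SMC2, just outside at 0.0574.

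FOXM1 (ENSG00000111206.12, chromosome 12, 2857681 to 2877155, minus strand) is the transcription factor that activates many of these genes in G2. Its level was 102, 101 and 119 CPM in the ALKBH5 rescue, shALKBH5 and shCtrl libraries numbered 2, against 86.4, 77.5 and 81.4 CPM in the same groups numbered 1. All number 2 libraries were higher, with a log2 fold change of 0.39 (SE 0.09, n = 3 per number, edgeR adjusted p = 0.00628). Without shALKBH5 replicates 1 and 2 it was 0.39 (adjusted p = 0.0865) and 0.40 (adjusted p = 0.0657).

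**Figure D3:**
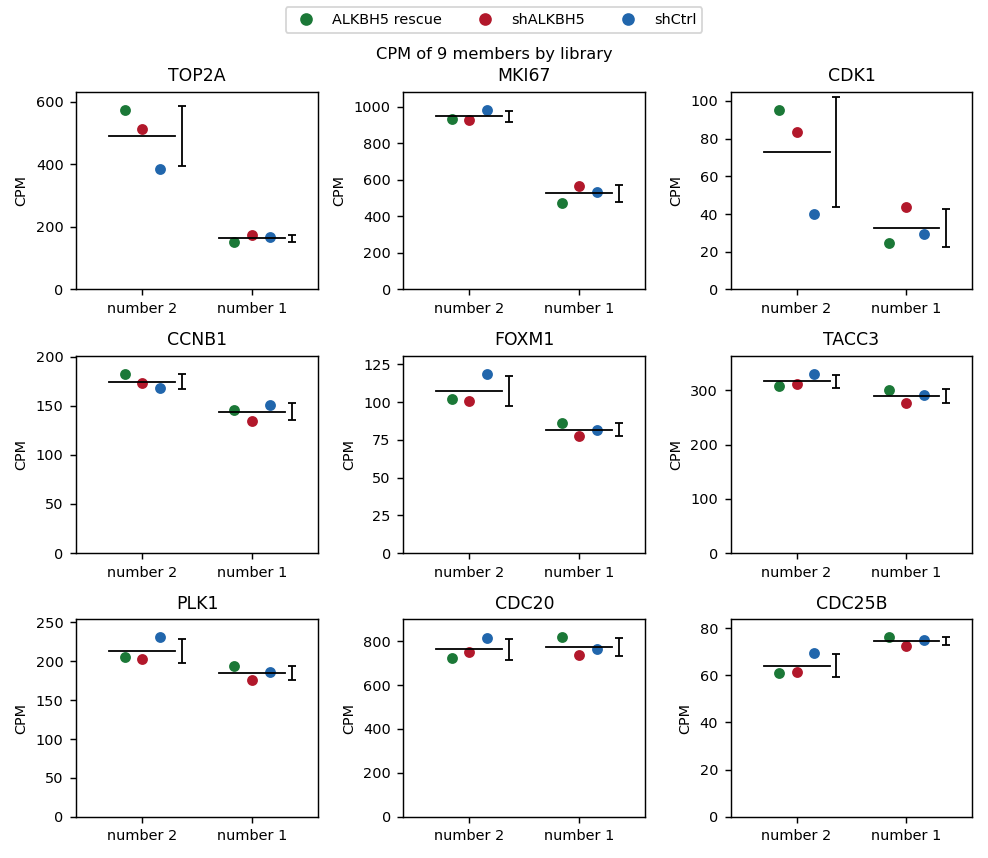
Points are the CPM of 9 genes in each library, number 2 left of number 1, coloured by labelled group; the line is the mean and the bar beside it ±1 SD of the 3 libraries. TOP2A averaged 491 ± 96.7 CPM in number 2 and 164 ± 11.9 CPM in number 1, while CDC20 and CDC25B show no higher level in number 2.

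Other genes of the same programme were described beside the 45. Of all tested genes, 22.8% were called higher in number 2 and 22.6% lower. In a list of 87 further G2/M genes, 51 were higher in number 2 and 1 was lower (ANAPC5, -0.25, SE 0.08), with a median of 0.42. Those with the smallest p were the kinetochore subunit SPC24 (1.29, SE 0.11), MASTL, the Greatwall kinase that restrains a CDK1-opposing phosphatase (1.23, SE 0.12), the ubiquitin enzyme UBE2S (0.95, SE 0.10) and the spindle protein CKAP2L (1.29, SE 0.15). Of 52 genes of the G1/S transition and DNA replication, 27 were higher and 3 lower (CDT1, POLD2 and MCM3), with a median of 0.30. Among 20 regulators of the programme, 8 were higher and 5 lower, with a median of 0.04. The share called lower was close to that of all tested genes. The pocket protein RBL1 was higher (1.34, SE 0.11), as was the repressor E2F8 (0.70, SE 0.10), whereas the CDK inhibitor CDKN1A (-0.64, SE 0.08) and E2F4 (-0.62, SE 0.08), the E2F of the DREAM complex, were lower. MYBL2, which encodes B-MYB, was higher at 0.30 (SE 0.09). The NF-Y subunits split, with NFYB higher (0.77, SE 0.21), NFYA lower (-0.58, SE 0.08) and NFYC at -0.13 (SE 0.09).

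The labels set shALKBH5 against shCtrl and ALKBH5 rescue against both, but ALKBH5 itself stood at 968 to 1097 CPM in number 2 and 12.4 to 14.6 CPM in number 1 whatever the label. These comparisons therefore do not answer what its loss or return does. Along the labels, 0 of the 45 genes passed in edgeR's test in any of the 3 comparisons, nor did any of the 14497 genes (0%). No gene of the 45 had an unadjusted p under 0.05 in these fits, which carry the number difference in their spread (0.262%, 0.297% and 0.317% of all tested genes had one). With number as a block, again 0 of 45 passed in each comparison, and 4, 2 and 0 genes had an unadjusted p under 0.05 for shALKBH5 over shCtrl, ALKBH5 rescue over shALKBH5 and ALKBH5 rescue over shCtrl (2.39%, 2% and 1.65% of all tested genes). All tested genes then gave 1, 0 and 1 calls (0.0069%, 0% and 0.0069%). DESeq2 and limma-voom also called 0 of the 45, with and without the block. The median log2 differences with the block were 0.00, 0.02 and 0.03, and the 95% interval lay within 2-fold either way for 42, 43 and 44 of the 45 genes. For FOXM1 the blocked log2 difference was -0.16 (95% interval -0.40 to 0.08) for shALKBH5 over shCtrl and 0.09 (95% interval -0.15 to 0.33) for ALKBH5 rescue over shALKBH5. For TACC3 the same 2 values were -0.08 (95% interval -0.30 to 0.14) and 0.06 (95% interval -0.16 to 0.27). The comparisons share libraries, so their values are not independent of each other.

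The gene with the smallest blocked p along the labels was CDK1, at 83.7 and 43.6 CPM in the shALKBH5 libraries numbered 2 and 1, against 39.8 and 29.3 CPM in the shCtrl libraries. The groups did not overlap, and the blocked log2 difference was 0.81 (95% interval 0.20 to 1.42, edgeR adjusted p = 0.978). CENPE, NUF2, SMC2 and KIF11 followed, with 0.54, 0.42, 0.39 and 0.42. In the lower direction CCNB2, CDC25C, PRC1 and AURKB lay between -0.23 and -0.14, and none of these passed. The libraries of shALKBH5 lay above both shCtrl libraries for CDK1, TTK, HMMR, DLGAP5, SMC2 and SMC4, which is 6 of 45 genes against 9.3% of all tested genes, and below both for CDC20 (8.17% of all tested genes). For ALKBH5 rescue over shALKBH5 the smallest p were those of CCNB2 (0.27, 95% interval 0.04 to 0.51) and CENPE (-0.57, 95% interval -1.02 to -0.11), whose 2 within-number differences were -0.18 and -1.02 in numbers 2 and 1. RACGAP1 alone lay above without overlap there (5.39% of all tested genes) and none lay below (6.53%), with 63.4 and 59.4 CPM in ALKBH5 rescue and 55.5 and 49.2 CPM in shALKBH5. For ALKBH5 rescue over shCtrl, 0 of the 45 genes lay above or below without overlap (3.98% and 6.15% of all tested genes), and CDK1 stood at 0.56 (95% interval -0.06 to 1.17), made up of 1.25 within number 2 and -0.25 within number 1.

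Leaving out 1 ALKBH5 rescue library gave calls in the blocked fits, which then keep 1 residual degree of freedom. For shALKBH5 over shCtrl, both such fits rest on the same shALKBH5 and shCtrl libraries and are not separate checks. Without either ALKBH5 rescue library, 9 genes were called higher in shALKBH5 than in shCtrl: CDK1, TTK, KIF11, CENPE, NUF2, ASPM, DLGAP5, SMC2 and SMC4 (2.52% of all tested genes were higher without replicate 1 and 2.37% without replicate 2). Without ALKBH5 rescue replicate 2, 12 genes were lower and 1 (PTTG1) was higher in ALKBH5 rescue than in shALKBH5 (5.82% of all tested genes lower and 0.911% higher). Without ALKBH5 rescue replicate 1, 12 genes were higher in ALKBH5 rescue than in shCtrl (4.48% of all tested genes). The genes called higher or lower, other than PTTG1, all had a leading transcript below the median GC share of the 45 genes, 46.0%. With offsets for GC share in the same fits, a step chosen after seeing the data, fewer of these genes and fewer of all tested genes were called. The fall in calls was therefore not particular to the 45 genes. Their median log2 difference moved from 0.00 to -0.02 for shALKBH5 over shCtrl. It moved from -0.05 to 0.05 for ALKBH5 rescue over shALKBH5 and from 0.06 to 0.02 for ALKBH5 rescue over shCtrl. SMC4 moved from -0.72 to -0.54 for ALKBH5 rescue over shALKBH5. The part of GC share in these calls was not tested.

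The GC share of the leading transcript ran from 35.4% (CENPE) to 60.1% (INCENP) over the 45 genes, with a median of 46.0% against 49.5% for all tested genes. Across the 45 genes, Pearson's r between GC share and the difference of ALKBH5 rescue over shCtrl was -0.79 within number 2 and 0.69 within number 1. For shALKBH5 over shCtrl it was -0.77 within number 2 and -0.48 within number 1. These are descriptions over genes measured in the same pair of libraries, which also share those libraries with each other. Over all 14490 tested genes with a GC share the same 4 values were -0.41, 0.23, -0.37 and -0.10. For the difference of number 2 over number 1, r over the 45 genes was -0.74 in ALKBH5 rescue, -0.51 in shALKBH5 and 0.12 in shCtrl. The 22 genes below the GC median had medians of 0.86, 0.49 and 0.22 in these 3 groups, against 0.30, 0.35 and 0.37 for the other 23 genes. In both sets most genes passed between the numbers, 17 of 22 and 16 of 23. With GC offsets, 34 of the 45 genes were higher in number 2, against 24.6% of all tested genes. PLK1 (0.29, edgeR adjusted p = 0.00235) and TACC3 (0.21, adjusted p = 0.0099) were among the 34. The part of GC share in the differences between single genes was not tested beyond these values.

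**Figure D4:**
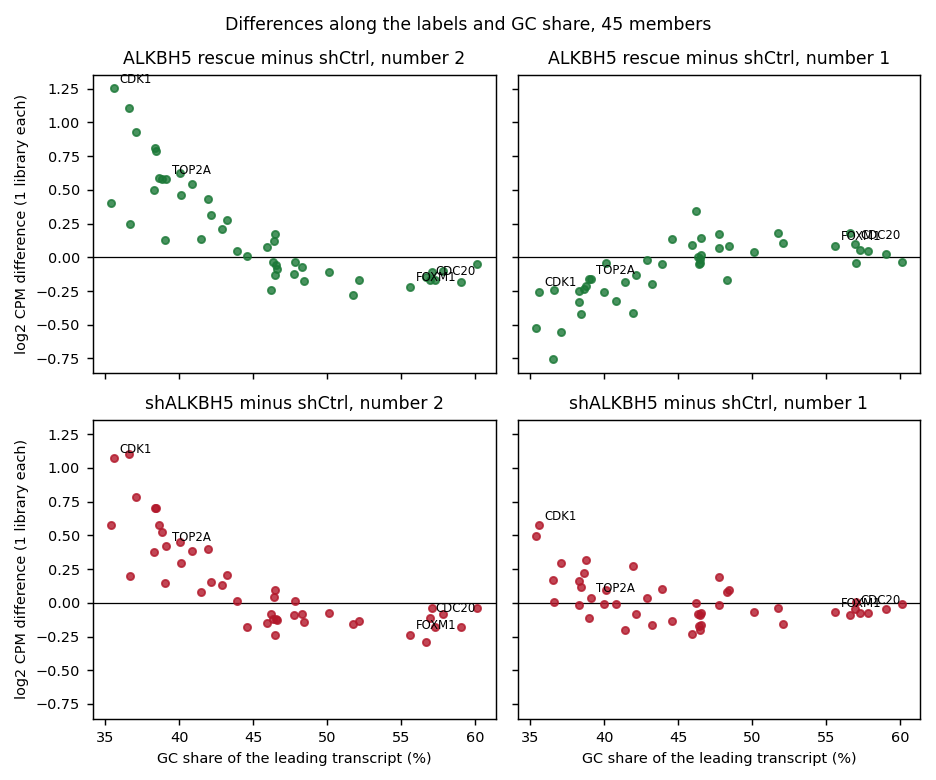
Each point is 1 of the 45 genes, with the GC share of its leading transcript on the x axis and the log2 CPM difference between 2 libraries of the same number on the y axis; the upper row is ALKBH5 rescue minus shCtrl and the lower row shALKBH5 minus shCtrl, number 2 left of number 1. Genes of low GC share, CDK1 among them, lie above 0 within number 2 in both rows and, for ALKBH5 rescue, below 0 within number 1.

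Some genes also differed in how kallisto divided counts among their transcripts. MKI67-201 (11417 bases) held 39.2%, 45.03% and 56.6% of the counts of MKI67 in the ALKBH5 rescue, shALKBH5 and shCtrl libraries numbered 2, against 75.3%, 62.9% and 73.7% in those numbered 1. Nearly all other counts went to the longer MKI67-202 (12678 bases), so the number 2 libraries held more of the longer form. The share of BUB1-201 was 88.8%, 74.3% and 40.0% in the ALKBH5 rescue, shALKBH5 and shCtrl libraries numbered 2, against 41.3%, 46.7% and 52.1% in those numbered 1. BUB1-207, annotated as a retained intron, held 0.66% in ALKBH5 rescue replicate 2 and 53.2% in ALKBH5 rescue replicate 1. ANLN-201 had 80.8%, 82.6% and 49.5% of the counts of ANLN in the ALKBH5 rescue, shALKBH5 and shCtrl libraries numbered 2, against 33.1%, 56.1% and 60.4% in those numbered 1. For BUB1 and ANLN the shCtrl libraries ran the other way from the other groups, so the numbers overlap. The leading transcript's share separated the numbers in 12 of the 45 genes, among them AURKA, AURKB, CENPA, ASPM and SMC2. This count was not made for all tested genes, so no background stands beside it. Some of the gaps were small, such as -0.52 percentage points between the means for KIF20A. In 10 genes the leading transcript held over 90% in every library. The shares are estimates from reads that fit several transcripts, with no error given, and were not tested.

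**Figure D5:**
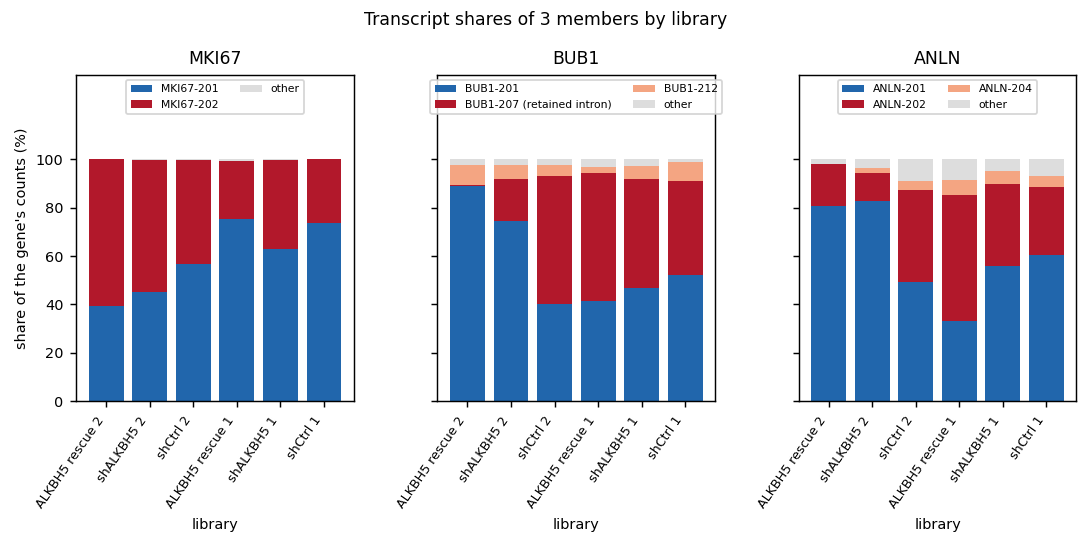
Stacked bars give the share of each gene's estimated counts by transcript in the 6 libraries, number 2 left of number 1, for MKI67, BUB1 and ANLN. The share of MKI67-201 is at most 56.6% in the number 2 libraries and at least 62.9% in the number 1 libraries, while BUB1 and ANLN differ most between the ALKBH5 rescue libraries.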

How the data were processed

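Polyadenylated RNA of THP1 was sequenced in 6 libraries, named by the group and number in their titles. The deposited tables hold, per transcript, an estimated count and a TPM value by the authors. CASAVA and kallisto 0.43.1 with build hg38 were used, per the submitters' processing notes, and other options, strand included, remain not given in the sources used here. Oligo-dT beads took the mRNA, which was primed at random and amplified, per the labels' protocols. No molecular identifier is mentioned, so counts are reads and not molecules. kallisto divides reads among similar transcripts, so counts of genes with near-identical copies are uncertain.

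Per gene of GENCODE 29 (GRCh38), the authors' estimated counts were added up and rounded. IDs without versions matched 163714 of 179973 transcripts (91.0%), and unmatched ones held 3.13% to 3.32% of counts and were left out. Deposited TPM values were summed per gene to compare levels between genes. CPM uses TMM-scaled library sizes. edgeR 4.0.16 in R 4.3.3 (TMM, filterByExpr, glmQLFit, glmQLFTest) was fitted on 14497 genes with p-values adjusted by Benjamini and Hochberg and called under 0.05. The fit between numbers has group and number as terms, and the fit between labels has group alone (3 residual degrees of freedom) or with number as a block (2). SE is the absolute log2 fold change over the square root of F. Within-number differences and GC comparisons use log2 CPM with a prior count of 2.

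The numbers in the titles were taken to pair the libraries. Libraries of one number deviated together from their group means, with r of 0.73, 0.60 and 0.69 for the 3 pairs of groups. With 2 libraries per group, this r restates that the difference between numbers was shared by the groups. It cannot tell a shared preparation from a condition, and no label names a shared batch. The block brought edgeR's coefficient of biological variation to 10.6%, against 27.7% without it. Libraries of one number differed by a chi-square of 3.26 to 15.9 per gene, above sampling noise. These pairs also differ in labelled group. The value therefore shows that the libraries differ by more than sampling, and not that they came from separate cultures. Each library was counted once.

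The members, their role classes, the other lists and the rule for named genes were chosen with earlier results of these data known. The rule gives values in every library for FOXM1, TACC3, CCNB1, CDK1, MKI67, AURKA, PLK1 and the 10 members with the smallest p between numbers, and, where fewer than 5 passed in a direction, for those of smallest p. The 5 of smallest blocked p per direction were taken for each comparison of labels. TTK in the comparison of numbers, the transcripts of BUB1 and ANLN, and MKI67 for its transcripts were picked after their values were seen. Alternatives were RLE, upper-quartile and library-total scaling, DESeq2 1.42.0, limma-voom (limma 3.58.1), no filter, 1 CPM in 2 libraries, protein-coding transcripts only, no group term and leaving out each library. Loess offsets on GC share (span 0.5), and leaving out both ALKBH5 rescue libraries, were added after seeing the data. Only the edgeR fit with group and number as terms was run on simulated counts with known changes. The fit between labels with group alone was not simulated.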

Additional observations from a re-analysis of the deposited data

Results flagged for a closer look

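Differences along the labels often had opposite signs in the 2 numbers. All values here are log2 CPM differences between 1 library and 1 library, and whether the numbers differ was not tested. The median of the 45 genes was 0.017 within number 2 and -0.016 within number 1 for shALKBH5 over shCtrl, 0.047 and -0.022 for ALKBH5 rescue over shALKBH5, and 0.074 and -0.044 for ALKBH5 rescue over shCtrl.

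For ALKBH5 rescue over shALKBH5, SMC4 stood at 0.038 within number 2 and -0.68 within number 1, NUF2 at 0.055 and -0.53, SMC2 at 0.0068 and -0.46, and TTK at 0.0014 and -0.92. For ALKBH5 rescue over shCtrl, CDK1 stood at 1.25 within number 2 and -0.25 within number 1, KIF11 at 0.81 and -0.25, TOP2A at 0.58 and -0.16, NUF2 at 0.58 and -0.21, and NDC80 at 0.46 and -0.040. These genes have a leading transcript below the median GC share of the 45 genes. CDC25B at -0.19 and 0.024 and FOXM1 at -0.22 and 0.087 ran the other way in the same comparison, and both lie above that median. The part of GC share in these values was not tested.

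CDC20 was the one gene, of the 17 named between the numbers, whose difference of number 2 over number 1 changed sign between groups, with -0.18 in ALKBH5 rescue, 0.028 in shALKBH5 and 0.090 in shCtrl.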

How the results depend on the processing

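Between the numbers, 31 to 36 of the 45 genes were higher in number 2 under the 10 other scalings, filters, tools and models. In the same settings 15.8% (DESeq2) to 25% (no group term) of all tested genes were called higher. The median log2 fold change of the 45 genes ran from 0.33 to 0.48. Library totals moved the median of all tested genes to 0.09. Leaving out 1 library gave 21 to 36 genes, with 13.9% to 23% of all tested genes higher. With GC offsets as well it gave 25 to 37 genes, with 14.5% to 22.3% of all tested genes higher. Fits that drop either library of the same group rest on the same libraries of the other groups, so they are not separate checks. Without either ALKBH5 rescue library, 6 of the 33 called values moved by over 1.5 times: CDK1 to 0.72, CENPF to 0.37 and 0.38, ASPM to 0.75 and 0.76, DLGAP5 to 0.40 and 0.41, ANLN to 0.28 and ECT2 to 0.21, and UBE2C, PTTG1, PLK1 and BIRC5 passed as higher. Without either shCtrl library ECT2 stood at 0.62, and TTK, SMC2 and SMC4 passed. SMC4 also passed without either shALKBH5 library. Leaving out 1 library with GC offsets also moved KIF23, NDC80, NCAPG, CCNA2, BUB1B, KIF11, CENPE and NUF2 by over 1.5 times, to values from 0.19 to 0.61. CDC20 was reversed at 0.0067 with upper-quartile scaling, 0.051 with library totals, 0.016 with no filter, 0.013 with protein-coding transcripts, 0.063 with GC offsets and 0.059 without both ALKBH5 rescue libraries, and ran from -0.064 to 0.098 when 1 library was left out. The cause was not tested.

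Along the labels the replicate block called 0 of the 45 genes in each comparison, as did the fit without it. When 1 library was left out, the counts were 0 to 9 for shALKBH5 over shCtrl, 0 to 13 for ALKBH5 rescue over shALKBH5 (1 with GC offsets without ALKBH5 rescue replicate 2) and 0 to 12 for ALKBH5 rescue over shCtrl. Without the block, a fit that lacks 1 library sets unequal numbers of number 2 and number 1 libraries against each other. The median of the 45 genes for shALKBH5 over shCtrl then ran from -0.21 to 0.21. With the block and without GC offsets it ran from -0.035 to 0.034. The following values span 0 when 1 library was left out. For shALKBH5 over shCtrl the ranges were -0.51 to 0.17 for AURKB, -0.59 to 0.18 for CCNB2, -0.80 to 0.36 for CDC25C, -0.42 to 0.14 for FOXM1 and -0.34 to 0.045 for PRC1. For ALKBH5 rescue over shALKBH5 they were -0.13 to 0.41 for AURKA, -0.020 to 0.46 for AURKB, -0.094 to 0.67 for CCNB2, -1.43 to 0.13 for CENPE, -0.87 to 0.33 for NUF2, -0.065 to 0.32 for PRC1, -0.64 to 0.16 for SMC2, -0.78 to 0.12 for SMC4 and -1.19 to 0.21 for TTK. For ALKBH5 rescue over shCtrl they were -0.24 to 0.065 for CDC25B, -0.64 to 0.48 for CDC25C, -0.50 to 1.46 for CDK1, -0.32 to 0.19 for ESPL1, -0.34 to 0.21 for FOXM1, -0.38 to 0.92 for KIF11, -0.69 to 0.40 for MKI67, -0.20 to 0.59 for NDC80, -0.44 to 0.77 for NUF2 and -0.89 to 1.11 for TOP2A. Beyond this imbalance of the numbers, the cause was not tested. Every gene had at least 145 estimated counts in every library, and each label has 2 libraries.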
